A study of Mus musculus with 24 samples.

Results

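Thrombomodulin (Thbd), the endothelial protein C receptor (Procr), Cd93 and Id1 are 4 of the 341 genes measured on a mouse array built for distal chromosome 2. They were taken as genes of the vessel lining with an anticoagulant or vascular role and were found by symbol. They hold 16 of the 3919 exon rows of the scanner files, which come to 15 of 3099 exon features once rows with the same coordinates are averaged. The authors' value table holds 114 of its 13388 probes for them. RNA was measured in congenic mice and in B6 mice, in epididymal white adipose tissue, gastrocnemius muscle, whole brain and liver, with 3 arrays for each of the 8 groups. The congenic mice are of the B6.S-2 strain, in which a distal chromosome 2 segment from SPRET/Ei replaces that of C57BL/6J (B6). Per its title, the study sought positional candidate genes of body weight and adiposity. The titles give the genotype of each sample, whereas the treatment field calls all of them congenic. The labels name a chow and a high fat diet but tie no sample to a diet, a sex or an age.

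Thrombomodulin sits on the surface of endothelial cells and binds thrombin, which then stops making clots and activates protein C instead. The endothelial protein C receptor holds protein C next to that complex and speeds its activation. Activated protein C takes apart the cofactors that drive clotting, so the pair acts as a brake on coagulation at the vessel wall. Cd93 is a membrane glycoprotein of the same C-type lectin family as thrombomodulin, found on endothelial cells and on some blood cells. Id1 is a helix-loop-helix protein without a DNA-binding region. It pairs with E proteins and keeps them from their E-box sites, and it is induced by bone morphogenetic protein signalling, in endothelial cells among others.

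The 4 genes lie on chromosome 2 in the coordinates of the deposited files, whose genome build is not given in the sources used here. Thbd runs from base 148157035 to base 148160749 on the minus strand and has 2 exon rows. Cd93 runs from 148189212 to 148196105 on the same strand and has 4 rows. These neighbours are 28462 bases apart, with 0 measured genes between them. Id1 runs from 152799604 to 152800757 on the plus strand and has 3 rows. Procr runs from 155814659 to 155818807 on the plus strand and has 7 rows, 3013901 bases beyond Id1. The rows are exons of the transcripts used for the array design, and the files do not say which parts are untranslated. Rows of a gene overlap where 2 transcripts cover the same exon, as both Thbd rows and the Id1 rows do, so they are not independent measurements. Within a row the probes differ widely in brightness, with a median SD over mean from 0.387 to 1.57 among the 16 rows.

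Of the 4 genes, RefSeq's promoter table (GRCm38.p6) matched 1, Procr. Its window of 250 bases before to 50 after the start is therefore the only one printed. It lies at chr2:155750967-155751266 on the plus strand of that build, which is not the build of the exon coordinates. Capitals mark matches to the E-box CANNTG, the kind of site kept free by Id1, and to the AP-1 type site TGANTCA. Both motifs read the same on either strand, and the matches do not overlap.

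Procr: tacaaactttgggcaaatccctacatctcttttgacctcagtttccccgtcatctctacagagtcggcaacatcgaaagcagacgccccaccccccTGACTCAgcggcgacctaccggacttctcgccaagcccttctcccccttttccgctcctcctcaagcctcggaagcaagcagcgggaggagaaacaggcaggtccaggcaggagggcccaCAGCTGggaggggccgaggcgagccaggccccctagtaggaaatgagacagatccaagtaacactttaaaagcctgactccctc

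The E-box match, CAGCTG, begins 34 bases upstream of the annotated start, and the AP-1 type match, TGACTCA, begins 154 bases upstream. A match to the E-box CANNTG is in 72.3% of the 32851 RefSeq promoter windows of 300 bases, and one to the AP-1 type site TGANTCA in 7.81% of them. A match is a run of letters and was not tested for binding.

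The 12 arrays of brain and liver were on slide 1 and the 12 of adipose tissue and muscle on slide 2. A difference between tissues of the 2 slides cannot be told apart from one between slides, and differences are therefore given within a slide. Raw median intensities ran from 232 to 1237 on slide 1 and from 916 to 3571 on slide 2. The B6 liver array numbered 2 was the dimmest of all, and on slide 1 well row A held only congenic arrays. Tissue markers followed the labels. The fast muscle troponin gene Tnnc2 differed by -4.98 on the log2 scale, adipose minus muscle. Hepatocyte markers were lower in brain than in liver for 4 of 4 genes, and neuron markers higher for 2 of 2. Adipocyte markers were higher in adipose tissue than in muscle for 3 of 3 genes. Genes of the epididymis and testis were higher in the adipose samples for 7 of 7 genes, with summed levels of 38810 to 46920, against 4182 to 6399 in muscle. Genes of the seminal vesicle summed to 4820 to 11600 in congenic and 2046 to 4117 in B6 adipose tissue, so that every congenic adipose array was above every B6 one. In muscle they summed to 2106 to 13260 in congenic and 2024 to 2405 in B6 mice. The part of these other tissues in the values below was not tested, except where arrays are left out. Of 13 listed endothelial markers 5 were measured, the 4 genes themselves and Ptgis, so the endothelial share of a sample has almost no check of its own. Their summed level was 5667 to 6059 in adipose tissue and 5193 to 5761 in muscle, and 4731 to 4875 in brain and 4836 to 6660 in liver. Bulk RNA cannot tell fewer endothelial cells from less RNA per cell.

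**Figure D1:**
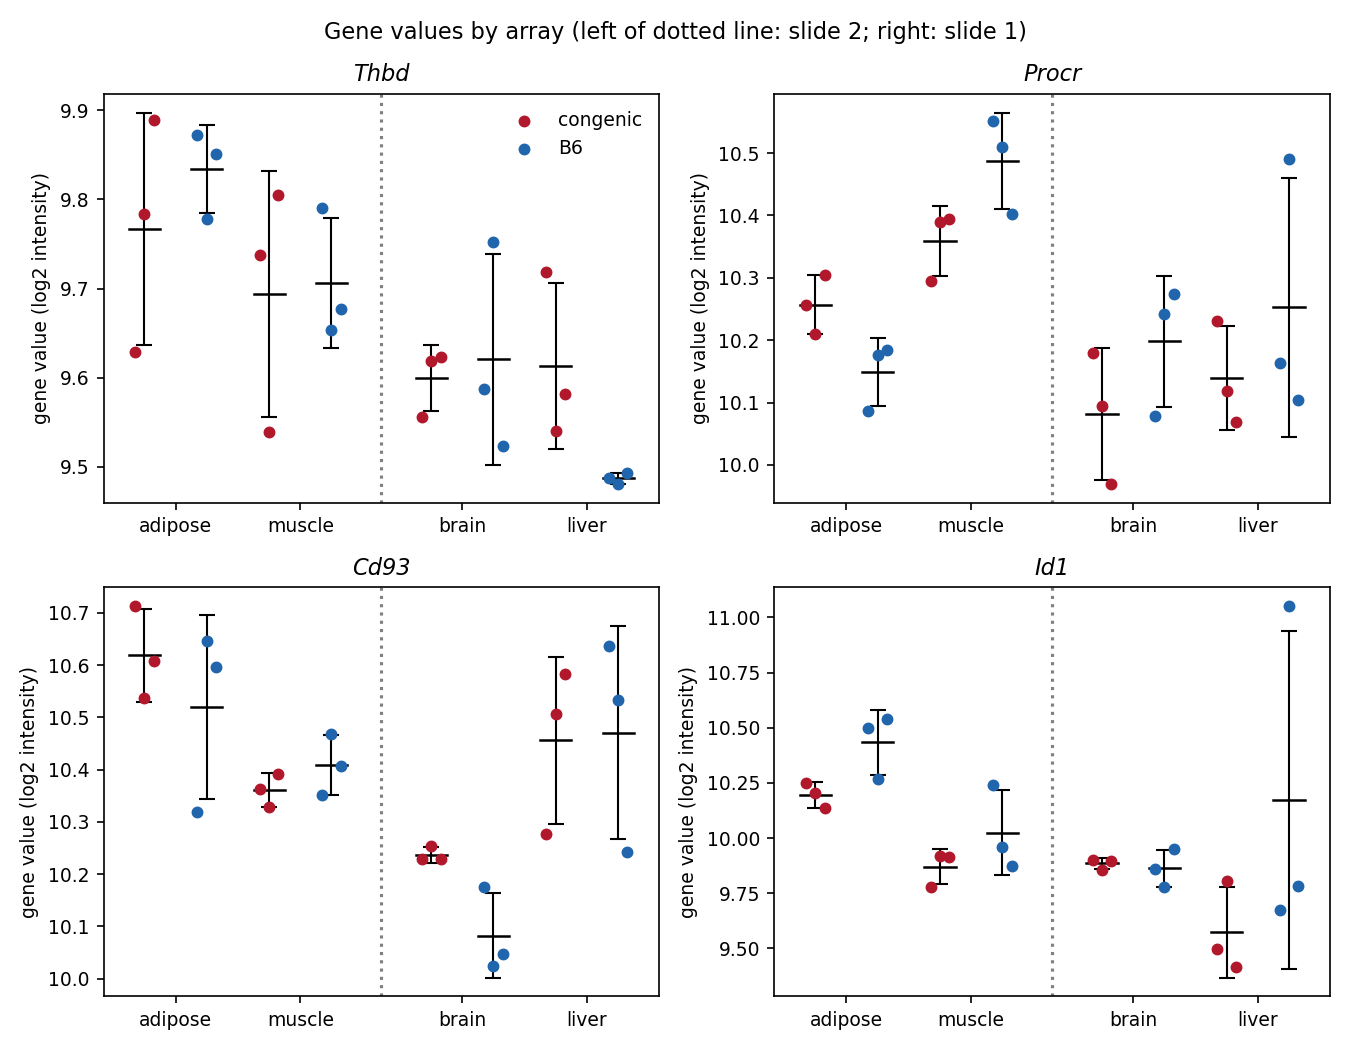
Gene values (log2 intensity, vertical axis) of Thbd, Procr, Cd93 and Id1 on 24 arrays, congenic in red and B6 in blue, with adipose tissue and muscle (slide 2) left of the dotted line and brain and liver (slide 1) right of it. Points are arrays, bars the mean ± SD of 3 arrays, and each panel has its own vertical axis. The single Id1 point at 11.05 is B6 liver replicate 2.

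Gene values are log2 intensities, a level with no common scale between genes. How far the 4 genes stood above background was not tested. For scale, the 2 measured skeletal muscle markers together still summed to 1234 to 1332 in B6 adipose tissue, on the linear scale of the sums above. A gene value alone therefore does not show expression, and small differences are read with that limit. Thbd averaged 9.80 ± 0.095 in adipose tissue and 9.70 ± 0.099 in muscle, and 9.61 ± 0.079 in brain and 9.55 ± 0.091 in liver (SD, n = 6). Procr averaged 10.20 ± 0.075 in adipose tissue and 10.42 ± 0.093 in muscle, and 10.14 ± 0.11 in brain and 10.20 ± 0.15 in liver (SD, n = 6). Cd93 averaged 10.57 ± 0.14 in adipose tissue and 10.38 ± 0.050 in muscle, and 10.16 ± 0.099 in brain and 10.46 ± 0.16 in liver (SD, n = 6). Id1 averaged 10.32 ± 0.16 in adipose tissue and 9.95 ± 0.16 in muscle, and 9.87 ± 0.058 in brain and 9.87 ± 0.60 in liver (SD, n = 6). On slide 2 the mean level of Thbd, Cd93 and Id1 was higher in adipose tissue than in muscle, and that of Procr lower. On slide 1 the mean of Thbd was higher in brain than in liver, those of Procr and Cd93 lower, and that of Id1 about equal. For each of the 4 genes the arrays of both tissues on a slide overlapped. The share of all genes or features without overlap was not counted, so a lack of overlap named below is description only. Levels were not ordered across slides.

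The spread of Id1 in liver came from 1 array. Id1 stood at 9.50, 9.81 and 9.42 in the congenic livers and at 9.68, 11.05 and 9.78 in the B6 livers. The B6 liver array numbered 2 lay 1.27 above the higher of the other B6 livers. Of the 341 genes, Id1 was the 1 gene that lay more than 1 log2 unit above both other B6 livers on that array. Procr was also highest there among the livers, at 10.49. In the authors' value table Id1 was also high in a single B6 liver, with 8.74, 8.91 and 9.19 in congenic livers and 9.11, 10.25 and 9.13 in B6 livers. Because all groups share 1 estimate of spread, this array widens the error of every Id1 difference. Values without it are given beside those with it. That array was singled out by its Id1 value, after the data had been seen. Leaving it out therefore narrows the Id1 error by choice, and those p-values are no independent support.

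Between adipose tissue and muscle, Procr was lower and Cd93 higher in adipose tissue, both by small amounts, while Thbd and Id1 did not pass the threshold of an adjusted p of 0.05. Over all genes, 36.1% passed (54 higher and 69 lower of 341), so 2 of 4 is near the share of the array as a whole. The median difference over all genes was -0.046.

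Procr stood at 10.26, 10.21 and 10.30 in congenic and 10.09, 10.18 and 10.18 in B6 adipose tissue. In muscle it stood at 10.29, 10.39 and 10.39 in congenic and 10.55, 10.51 and 10.40 in B6 mice. The lowest muscle array, a congenic one, lay just under the highest adipose array, and the other muscle arrays were above all adipose arrays. The difference, adipose minus muscle, was -0.22 ± 0.061 (SE), a level 1.17-fold lower, with an adjusted p of 0.00745 in limma. In the authors' value table it was -0.14, with an adjusted p of 0.0395. Within B6 mice Procr fell by 0.34, with no overlap between the tissues (limma adjusted p = 0.00595, against 21.4% of genes called). Within congenic mice the difference was -0.10, with overlap (adjusted p = 0.435, against 22.3% of genes called). The difference between genotypes was not past the threshold (0.24, adjusted p = 0.995, unadjusted p = 0.0657), so the genotypes were not shown to differ in it.

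Cd93 stood at 10.71, 10.54 and 10.61 in congenic and 10.32, 10.65 and 10.60 in B6 adipose tissue. In muscle it stood at 10.36, 10.33 and 10.39 in congenic and 10.35, 10.47 and 10.41 in B6 mice. Of the 6 adipose arrays, 5 were above every muscle array, and B6 adipose replicate 1 was below them all. The difference was 0.18 ± 0.069 (SE), a level 1.14-fold higher in adipose tissue, with an adjusted p of 0.0410 in limma. This call did not survive 6 of 12 other settings or 9 of 24 fits that left out 1 array. It was 0.26 within congenic mice (adjusted p = 0.0655) and 0.11 within B6 mice (adjusted p = 0.489). In tests on simulated data with as many differing genes as here, differences of this size were also called in some genes left unchanged, which touches both the Cd93 and the Procr call.

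Id1 stood at 10.25, 10.20 and 10.13 in congenic and 10.50, 10.27 and 10.54 in B6 adipose tissue. In muscle it stood at 9.78, 9.92 and 9.91 in congenic and 10.24, 9.96 and 9.87 in B6 mice. Within each genotype all adipose arrays were above all muscle arrays. The difference of 0.37 ± 0.16 (SE) had a limma adjusted p of 0.0738, with the outlying liver array in the shared spread. Without that array it was 0.37 ± 0.071, with an adjusted p of 4.00e-04. The value did not change, and only its error did, through an array picked for its Id1 value. Id1 passed in 5 of 12 other settings and in 2 of 24 fits without 1 array, and not in the rest. Among those 5 was a fit of only the adipose and muscle groups, which holds no liver array (0.37, limma adjusted p = 0.00151).

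Thbd stood at 9.63, 9.78 and 9.89 in congenic and 9.87, 9.78 and 9.85 in B6 adipose tissue. In muscle it stood at 9.74, 9.54 and 9.80 in congenic and 9.79, 9.65 and 9.68 in B6 mice. The tissues overlapped, and the difference was 0.10 ± 0.055 (SE), with a 95% interval of -0.015 to 0.22 (limma adjusted p = 0.159). Without the congenic adipose and congenic muscle arrays that were high in seminal vesicle genes, it was 0.16 with an adjusted p of 0.0339. Those arrays held the lowest adipose value, 9.63, and the highest muscle value, 9.80, so leaving them out widens the difference. In the authors' value table, with all arrays, the difference was 0.041 (limma adjusted p = 0.527).

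Between brain and liver, Cd93 was lower in brain and the other 3 genes did not pass. Of all genes 34.3% passed, 59 of 117 of them higher in brain (50.4%). That split depends on the scaling, with 32.7% higher under median scaling and 35.1% with median scaling and no background correction. Cd93 stood at 10.23, 10.25 and 10.23 in congenic and 10.17, 10.02 and 10.05 in B6 brains. In livers it stood at 10.28, 10.51 and 10.58 in congenic and 10.64, 10.53 and 10.24 in B6 mice. The lowest liver, a B6 one, overlapped the congenic brains, and the other livers were above all brains. The difference, brain minus liver, was -0.30 ± 0.069 (SE), a level 1.23-fold lower in brain, with a limma adjusted p of 0.00161. It passed in 12 of 12 other settings and in 24 of 24 fits that left out 1 array.

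Cd93 fell by 0.39 within B6 mice (limma adjusted p = 0.00651, against 20.5% of genes called). Within congenic mice the difference was -0.22 (adjusted p = 0.114, against 24.3% of genes called), although the groups did not overlap. The difference between genotypes was 0.17, with an adjusted p of 0.809. B2m, the light chain of class I histocompatibility molecules, listed here with the immune markers though not particular to immune cells, moved with Cd93. It was 2.14 higher in adipose tissue than in muscle and differed by -3.57 between brain and liver. The summed level of the 4 measured immune markers was 13540 to 21140 in adipose tissue and 5218 to 8571 in muscle. It was 3298 to 4295 in brain and 18730 to 26640 in liver. Of these 4, B2m was called higher and Cst7 lower in adipose tissue, and B2m and Samhd1 were called lower in brain. The median difference of the 4 was only 0.023 for adipose minus muscle and -0.12 for brain minus liver. Over all genes it was -0.046 and -0.012, so the sums do not describe the list as a whole. Their part in the Cd93 differences was not tested.

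Thbd differed by 0.060 between brain and liver (adjusted p = 0.446), with a 95% interval of -0.055 to 0.17. The 3 B6 livers lay close together, from 9.48 to 9.49, and below every brain. Procr differed by -0.056 (adjusted p = 0.522; interval -0.18 to 0.070), and by 0.0029 without B6 liver replicate 2, the array on which it was highest. Id1 differed by 0.0021 (adjusted p = 0.993; interval -0.33 to 0.33). Without the outlying B6 liver array, Id1 was 0.22 higher in brain, with a limma adjusted p of 0.0309. Of 24 fits without 1 array this was the 1 that passed, and the array left out was picked by its high Id1 value.

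The exon features of Procr, Cd93 and Thbd gave unlike values within a gene, while those of Id1 lay close together between adipose tissue and muscle. Whether the features of a gene differ from each other was not tested. Between adipose tissue and muscle, 2 of the 15 features were called higher and 2 lower, against 28.6% of all features called. For brain against liver, 3 were called lower and 0 higher, against 27.8%.

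In Procr 2 features were called lower in adipose tissue than in muscle. The 259-base exon from 155816693 to 155816951 stood at 10.30, 10.06 and 9.36 in congenic and 9.95, 10.12 and 10.05 in B6 adipose tissue. In muscle it stood at 10.74, 10.78 and 10.72 in congenic and 10.98, 10.91 and 10.75 in B6 mice. All muscle arrays were above all adipose arrays, in either genotype. The difference was -0.84 ± 0.13 (SE), with an adjusted p of 4.25e-05 over all features in limma. The rows of both transcripts for this exon, means of 5 and 3 probes, stood at -0.65 and -1.04. They cover the same bases on the same arrays, so they are not independent measurements. Whether single probes carried the difference was not tested. The 155-base row of the first exon differed by -0.39 ± 0.090 (adjusted p = 0.00188). The 122-base row, which lies within the same stretch, differed by -0.088 (adjusted p = 0.534). The remaining Procr features were between -0.14 and 0.17 and were not called. Without the 259-base exon the Procr gene difference was -0.10 (adjusted p = 0.265), a check chosen after the data had been seen.

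**Figure D2:**
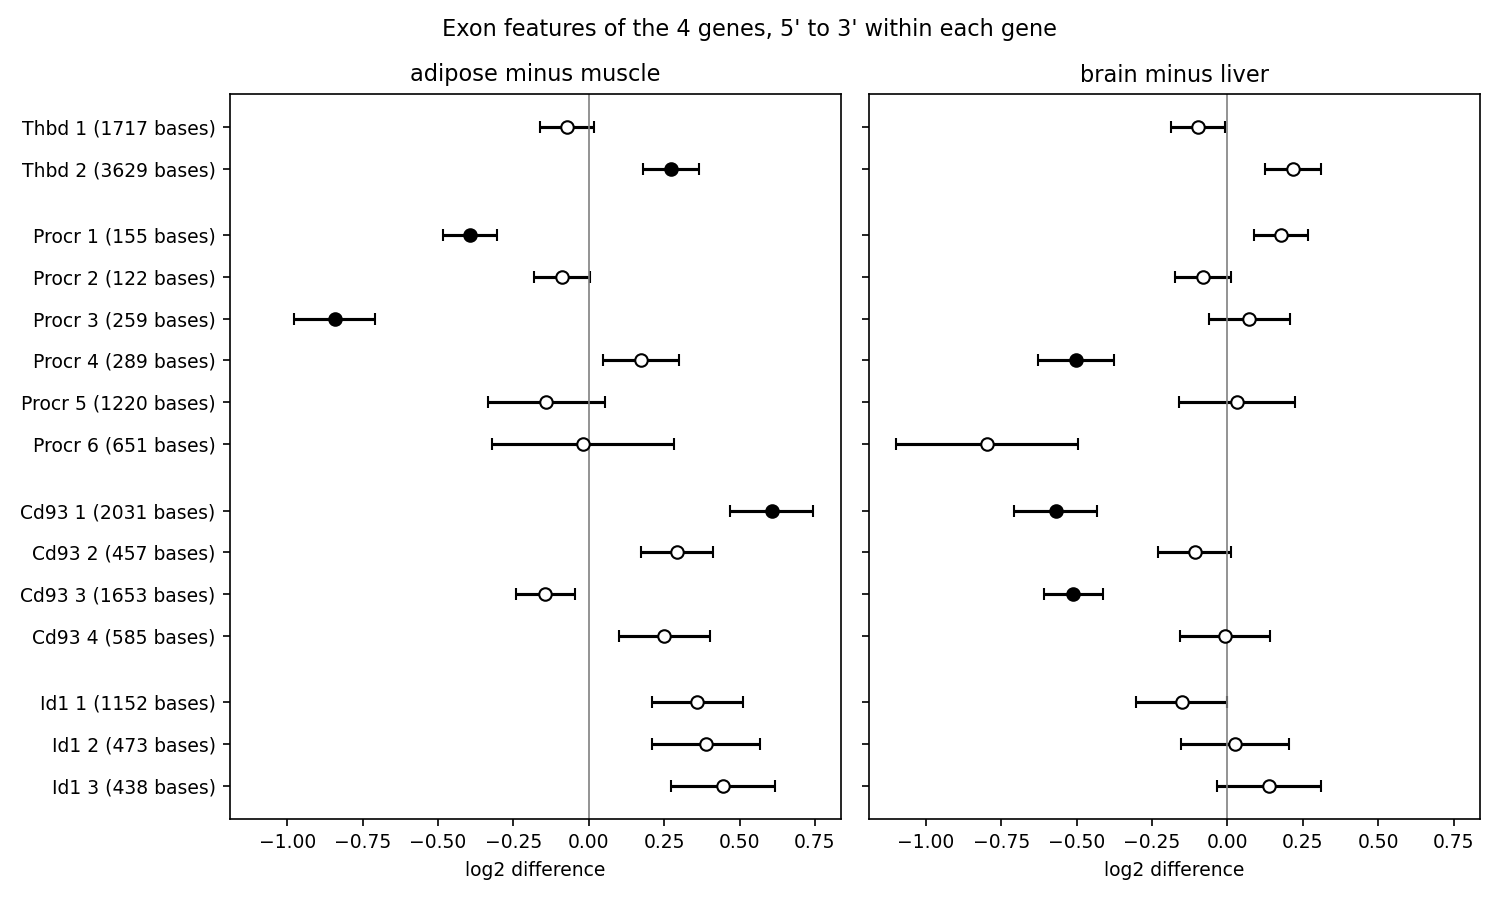
Log2 differences (horizontal axis) of the 15 exon features of Thbd, Procr, Cd93 and Id1, adipose minus muscle on the left and brain minus liver on the right. Features run 5' to 3' down each gene with their length, bars are ± SE of the limma fit over 24 arrays, and filled points passed an adjusted p of 0.05. The 259-base Procr exon stands at -0.84 between adipose tissue and muscle and at 0.072 between brain and liver.

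Between brain and liver the same Procr exon differed by 0.072 (adjusted p = 0.735). The 289-base Procr feature was lower in brain instead, by -0.50 ± 0.13 (adjusted p = 0.00456). The 651-base feature at the 3' end stood at -0.80 ± 0.30 and was not called (adjusted p = 0.0532). The 1220-base row, which spans both of these stretches in the other transcript, differed by 0.032 (adjusted p = 0.932). Both rested in part on B6 liver replicate 2, which stood at 9.43 in the 651-base feature, above 7.60 and 6.48 in the other B6 livers, and at 10.80 in the 1220-base row, above 9.50 and 9.13. Without it they differed by -0.40 (adjusted p = 0.131) and 0.28 (adjusted p = 0.118), and the 289-base feature by -0.46 (adjusted p = 0.0146).

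In Cd93 the 2031-base feature at the 5' end was called in both tissue comparisons. It stood at 10.02, 10.64 and 10.41 in congenic and 9.69, 10.20 and 10.59 in B6 adipose tissue, and in muscle at 9.59, 9.57 and 9.70 in congenic and 9.65, 9.74 and 9.66 in B6 mice. Only the B6 adipose array at 9.69 fell within the muscle range. The difference was 0.61 ± 0.14 (SE), with an adjusted p of 0.00181. For brain minus liver it was -0.57 ± 0.14 (adjusted p = 0.00335). The 1653-base feature was lower in brain by -0.51 ± 0.098 (adjusted p = 3.69e-04), but stood at -0.14 between adipose tissue and muscle (adjusted p = 0.303). The 585-base and 457-base features were not called between brain and liver, at -0.0088 (adjusted p = 0.977) and -0.11 (adjusted p = 0.544). Without the 2031-base feature, the Cd93 gene difference was 0.089 between adipose tissue and muscle (adjusted p = 0.416). Its brain minus liver difference was -0.25 (adjusted p = 0.0201).

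In Thbd the 3629-base row was higher in adipose tissue by 0.27 ± 0.093 (adjusted p = 0.0306), and the overlapping 1717-base row stood at -0.073 (adjusted p = 0.606). For brain minus liver the same rows stood at 0.22 and -0.099, neither of them called. In Id1 all 3 features were between 0.36 and 0.45 for adipose minus muscle, with adjusted p from 0.0574 to 0.113. Without B6 liver replicate 2 the same values had adjusted p from 0.00230 to 0.00836. In that fit the 438-base Id1 feature was 0.37 higher in brain than in liver (adjusted p = 0.0169). The 473-base and 1152-base features stood at 0.26 (0.0910) and 0.050 (0.731) and were not called. Between adipose tissue and muscle Id1 was the gene whose features lay closest together, though its 1152-base row overlaps both others.

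Single probes of the authors' value table also spread widely within a gene. Between adipose tissue and muscle, where 17.7% of all probes were called, 20 of 27 Procr probes were lower and 3 were called. The lowest Procr probe stood at -2.77, while the median was -0.18. For Cd93, 18 of 29 probes were higher, and 2 were called higher and 2 lower, with a highest value of 1.94. For Thbd, 16 of 28 were higher and 3 were called. For Id1, 27 of 30 were higher, yet none of these passed and 1 probe was called lower. Between brain and liver, where 18.9% were called, 18 of 29 Cd93 probes were lower, with 4 called lower and 0 called higher. In that comparison Thbd had 2 called higher and 3 lower, Procr 1 lower and Id1 2 lower.

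**Figure D3:**
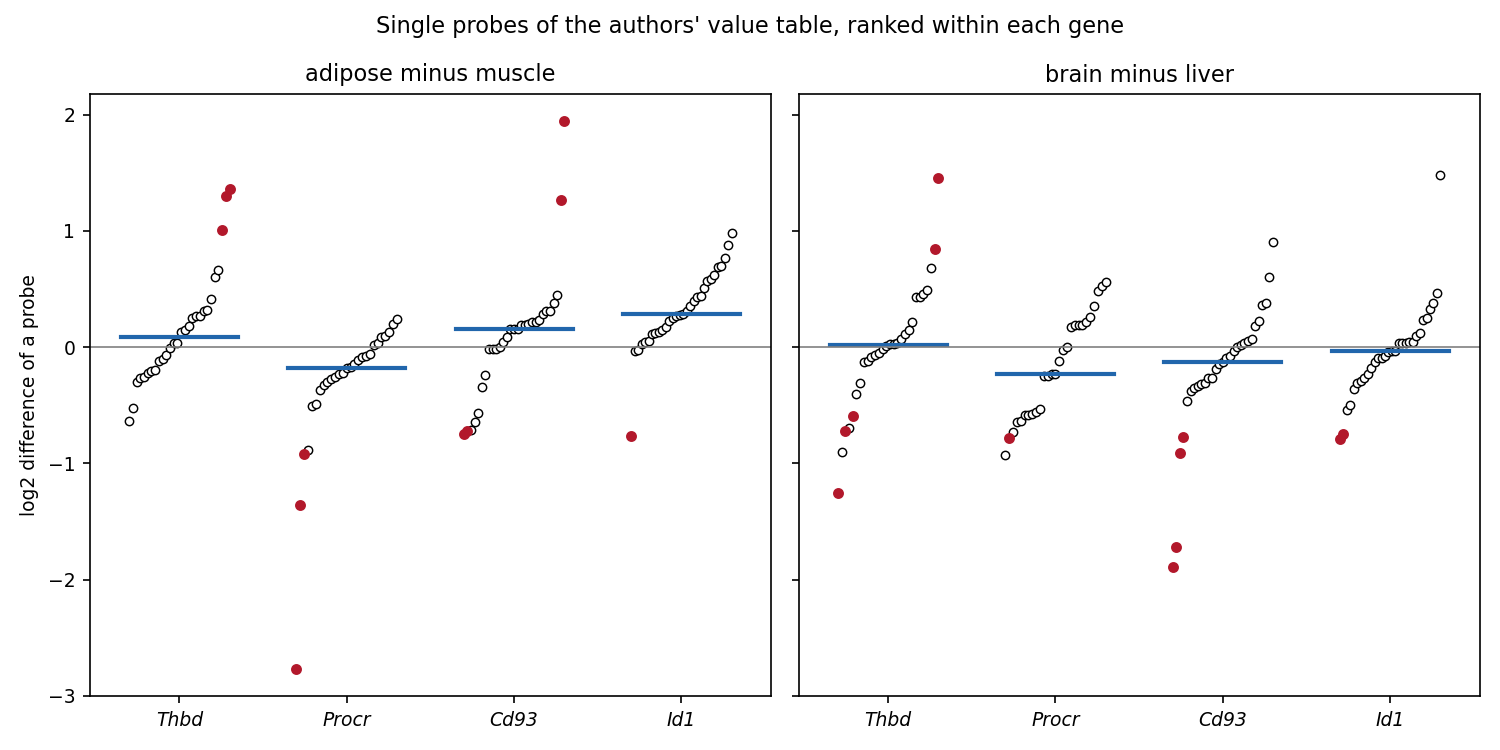
Log2 differences (vertical axis) of the 114 single probes of the authors' value table, ranked within Thbd, Procr, Cd93 and Id1, for adipose minus muscle on the left and brain minus liver on the right. Red points passed an adjusted p of 0.05 over all 13388 probes, and blue bars are medians. A few probes reach -2.77 in Procr and 1.94 in Cd93, while the 8 gene medians lie between -0.23 and 0.28.

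The study's own comparison is that of congenic with B6 mice. None of the 4 genes passed in brain (0.88% of all genes called), liver (0.587%), adipose tissue (1.47%) or muscle (0.587%), or in the mean over tissues (2.05%). At an unadjusted p under 0.05, limma gave 1 of these genes, Id1, in liver (45 of all 341 genes) and in the mean (51 of 341). It gave 0 of the 4 in brain (37 of 341), adipose tissue (27 of 341) and muscle (17 of 341). No exon feature of the 4 genes was called in the mean over tissues (1.23% of all features). Intervals of the differences within a tissue were within -0.31 and 0.36 for Thbd, Procr and Cd93.

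Id1 was the widest of them. In liver, congenic minus B6 was -0.60 ± 0.22 (SE), with an unadjusted p of 0.0148 and an adjusted p of 0.252 in limma. Without the outlying B6 liver array it was -0.16. In adipose tissue Id1 stood at -0.24, with all congenic arrays below all B6 arrays (adjusted p = 0.992). Without the 2 arrays high in seminal vesicle genes, 1 of them a congenic adipose array, it was -0.27 (adjusted p = 0.992). In muscle it stood at -0.15 (adjusted p = 0.955), and in brain at 0.023 (adjusted p = 0.988). The mean over tissues was -0.24 ± 0.11 (adjusted p = 0.319), and without the outlying liver array -0.13 ± 0.052 (adjusted p = 0.221). Its error treats all arrays as independent, and whether samples of different tissues came from the same mice was not tested. Of the 30 Id1 probes in the value table, 27 were lower in that mean and 1 was called, against 1.35% of all probes. The probes share their arrays, and their agreement in sign is no measure of replication.

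Thbd differed between genotypes by 0.13 in liver, where the congenic livers at 9.72, 9.54 and 9.58 were above the B6 livers at 9.49, 9.48 and 9.49 (adjusted p = 0.552). In the value table this was 0.014, and the genotypes overlapped. Procr was 0.11 in adipose tissue and -0.13 in muscle, without overlap of the genotypes in either (adjusted p = 0.992 and 0.905). The adipose value of Procr was 0.11 also without the 2 arrays high in seminal vesicle genes, 0.015 with the mean of exon features, and 0.075 in the value table, where the genotypes overlapped. Over the other settings the muscle value ran from -0.23 to -0.081. Cd93 was 0.15 in brain, also without overlap (adjusted p = 0.618), but -0.020 in the value table, with overlap. The F test of genotype by tissue called none of the 4 genes (adjusted p from 0.670 to 0.841), against 0.293% of all genes. Whether SPRET/Ei sequence differences under the probes moved any of these values was not tested.

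**Figure D4:**
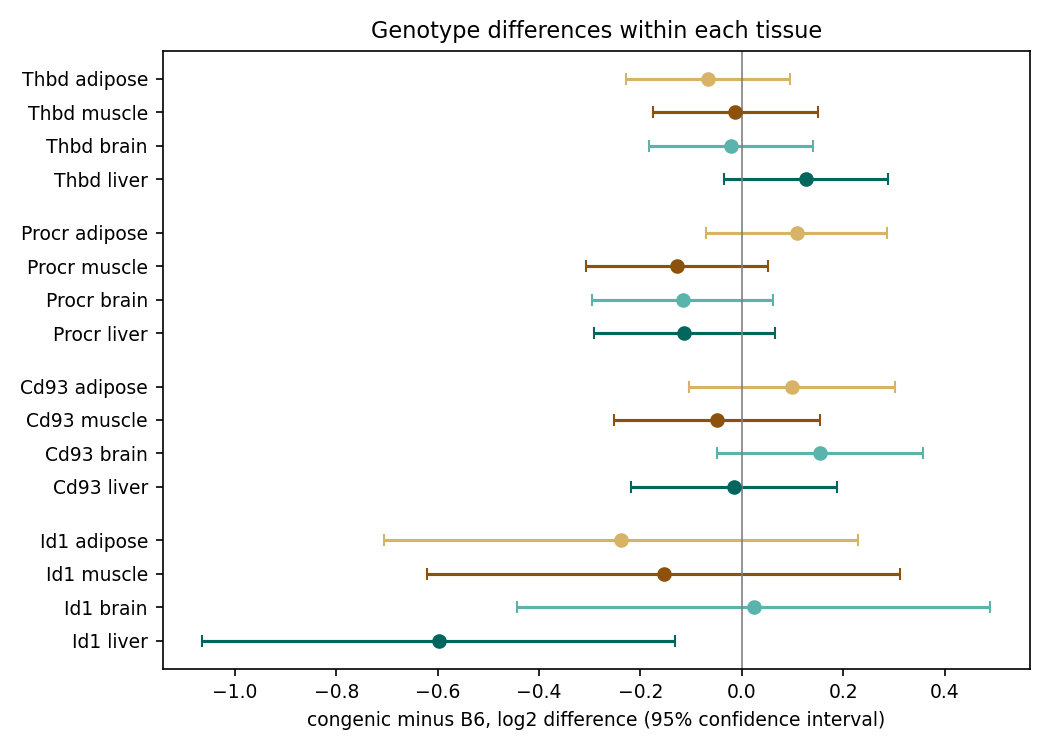
Differences between congenic and B6 mice (congenic minus B6, log2, horizontal axis) of Thbd, Procr, Cd93 and Id1 in adipose tissue, muscle, brain and liver, with 95% confidence intervals of the limma fit (n = 3 arrays per group). All intervals cross 0 except that of Id1 in liver, at -0.60, which was -0.16 without the outlying B6 liver array.

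Among other vessel and coagulation genes, 17 of 44 listed were measured on the array. Between adipose tissue and muscle, where 36.1% of all genes were called, 2 were higher and 0 lower, with a median of 0.0051 beside -0.046 over all genes. They were Myl9, the regulatory light chain of smooth muscle myosin (0.43, adjusted p = 0.00112), and Ptgis, the prostacyclin synthase (0.11, adjusted p = 0.0356). Between brain and liver, where 34.3% of all genes were called, 2 were higher and 3 lower, with a median of -0.042 beside -0.012. The syndecan gene Sdc4, a heparan sulphate proteoglycan, was lower in brain by -0.63 (adjusted p = 5.40e-05), as were Ptgis (-0.23, adjusted p = 7.00e-05) and the adenosine deaminase gene Ada (-0.19, adjusted p = 0.0434). Phospholipase C gamma (Plcg1, 0.15) and the sulphatase Sulf2 (0.16) were higher. Between the genotypes, 0 of 17 were called in any of the 4 tissues or in their mean.

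Over the 24 arrays, after the mean of each slide was subtracted, the 4 genes correlated with each other with Pearson's r from -0.31 to 0.18. Without the outlying B6 liver array r ran from -0.43 to 0.28, and that of Procr with Id1 was -0.43, against 0.18 with it. The genes most like Thbd were Bpifa5 (0.56), Ralgapb (0.53) and Sec23b (0.50). Those most like Procr were Tti1 (0.65), Pxmp4 (0.62) and Mylk2 (0.61). Cd93 was most like a transcript without a symbol (0.76), B2m (0.75) and Fer1l4 (0.67). Id1 was most like another transcript without a symbol (0.74), Kat14 (0.58) and Sdcbp2 (0.57). Without the outlying B6 liver array the Id1 list became Adig (0.75), Nnat (0.71) and Ppia (0.70), and that of Procr Rims4, Crnkl1 and Mylk2 (0.73 to 0.74), while those of Thbd and Cd93 named the same genes. The arrays share tissues and slides, so these values describe the pattern only.

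**Figure D5:**
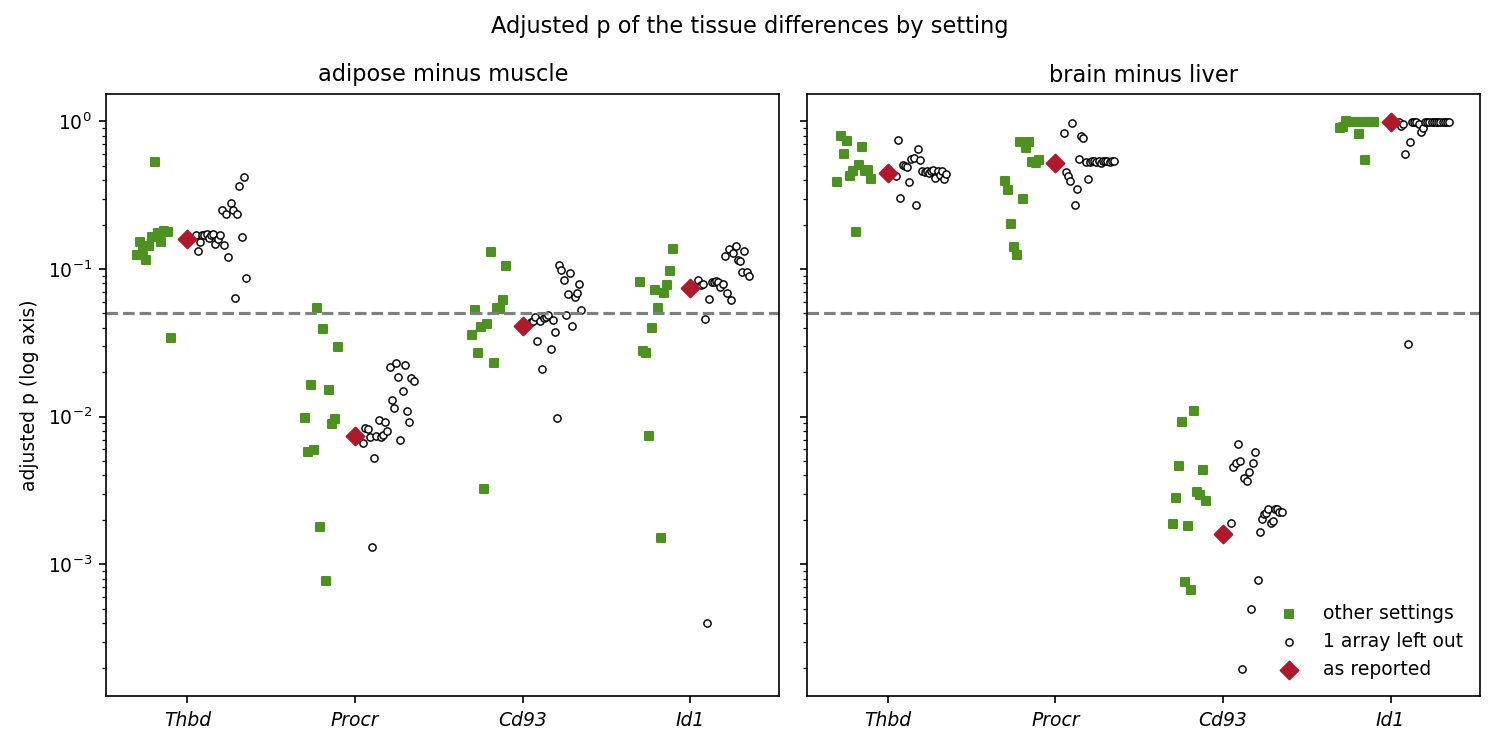
Adjusted p (log axis) of the tissue differences of Thbd, Procr, Cd93 and Id1, adipose minus muscle on the left and brain minus liver on the right. Red diamonds are the reported fit, green squares 12 other settings and open circles 24 fits without 1 array, and the dashed line is 0.05. Cd93 between brain and liver stays under the line in every fit shown, and Cd93 and Id1 between adipose tissue and muscle fall on either side of it.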

How the data were processed

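Total RNA of 24 mouse samples was copied into biotin-labelled cRNA and hybridised to a custom 12-well NimbleGen array, per the labels' protocols. The deposited scanner files hold intensity values on a linear scale, as means over each exon's probes, per the file headers, with the ratio of the probes' SD to their mean beside them. The deposited value table holds the authors' intensity per probe, with column medians of 438.6 to 441.3. Per the submitters' processing notes RMA was used (settings not given in the sources used here). That table is single-channel on a linear scale and was not centred by gene. Set against its columns, 7 of the 24 scanner files fitted their own replicate's column best, 17 another replicate's of their group and 0 another group's.

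The exon values underwent normexp background correction (offset 50), quantile normalization and log2. Median polish over exon features gave gene values. Group means were tested with limma 3.58.1 (R 4.3.3), with a mean per group and Benjamini-Hochberg adjustment over 341 genes, 3099 features or 13388 probes. Value table probes were tested on log2 values in the same design. The fit was tested on simulated data. It called no unchanged gene when no gene differed. With as many differing genes as between these tissues, it called unchanged genes at small differences more often than the threshold allows. Genes were named by rule: every member, its 3 most similar genes, and the measured vessel genes with the smallest p. The members and lists were chosen with earlier results of these data known. The design text states biological replicates, and their 3 arrays per group limit the precision. Figures used matplotlib 3.10.9 (Python 3.11.15). Alternatives were other background corrections, scalings, summaries, filters, blocks and left-out arrays.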

Additional observations from a re-analysis of the deposited data

How the results depend on the processing

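For adipose minus muscle, Procr passed in 11 of 12 other settings and in 24 of 24 fits without 1 array (-0.24 to -0.20). Its values in the other settings ran from -0.24 to -0.14. It did not pass with the mean of exon features (-0.22, adjusted p = 0.0541). Cd93 did not pass with median scaling (0.21, adjusted p = 0.0527), the value table (0.093, 0.130), a well row block (0.18, 0.0542), a replicate block (0.18, 0.0535), a replicate block within genotype (0.18, 0.0621) or without 2 arrays high in seminal vesicle genes (0.17, 0.105). Leaving out 1 array gave Cd93 values of 0.15 to 0.24, and 9 of 24 fits lost the call. Those were the fits without B6 adipose replicate 2 or 3, congenic adipose replicate 1 or 3, B6 muscle replicate 1 or 3, or congenic muscle replicate 1, 2 or 3. Id1 passed with median scaling (0.37, adjusted p = 0.0276), quantile scaling within each slide (0.39, 0.0271), no background correction and median scaling (0.34, 0.00736), the mean of exon features (0.40, 0.0399) and only the groups compared (0.37, 0.00151). It also passed without B6 liver replicate 1 (adjusted p = 0.0462) or 2 (4.00e-04), with a value of 0.37 in both. All 24 such fits gave 0.33 to 0.42. Thbd passed without the 2 arrays high in seminal vesicle genes (0.16, 0.0339), and ranged from 0.062 to 0.13 without 1 array. Its values in the other settings ran from 0.041, in the value table, to 0.16. The 4 called features of these genes became 7 with quantile scaling within each slide, 8 with no background correction and median scaling and 10 with only the groups compared, and 3 to 7 without 1 array. Leaving out 1 exon feature, chosen after seeing the data, ended the Procr call without the 155-base (-0.16, adjusted p = 0.106), 122-base (-0.21, 0.0608) or 259-base exon (-0.10, 0.265). It ended the Cd93 call without the 457-base (0.14, 0.0933) or 2031-base feature (0.089, 0.416). These fits ran from -0.33 to -0.10 for Procr and from 0.089 to 0.32 for Cd93. The cause of these changes was not tested.

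For brain minus liver, Cd93 kept its call throughout (-0.36 to -0.26 without 1 array). Id1 ranged from -0.12 to 0.22 without 1 array and passed once, without B6 liver replicate 2 (0.22, adjusted p = 0.0309). Its uncalled sign turned in 2 of 12 other settings and 7 of 24 fits without 1 array. The uncalled sign of Procr turned in 1 of 24, without the same array (0.0029). Between genotypes, 0 of the 4 genes passed under any setting or without any array, while 9 of 20 uncalled values changed sign in at least 1 fit, such as Cd93 in liver in 5 of 11 settings and Cd93 in brain in the value table (-0.020, against 0.15).

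Replicate numbers were not taken to pair the samples. Deviations of same-numbered arrays correlated from -0.494 to 0.514, and a replicate block changed only the Cd93 call above. As 17 scanner files fitted another replicate's column best, neither check can show whether samples shared an animal. The filter on dim features left 5 of 6 Procr features and every feature of the other genes. The 3 arrays per group limit all intervals.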
